A study of Rattus norvegicus with 7 samples.

Results

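The miR-193 and miR-365 cluster was examined here in rat liver by way of the microRNAs (miRNAs) that the array lists as rno-miR-193, rno-miR-193*, rno-miR-365 and rno-miR-365*, which are 4 of the 677 miRNAs on the array. The names define the members. The comparison made with them was selected on measured values of the same arrays, namely the ratio of the 2 arms of the miR-193 precursor and a direction that changed with background subtraction. Every difference between PFOS and Control is therefore a description, and no test of a member is given. The livers were those of adult male Sprague-Dawley rats. They were fed a control diet (3 arrays) or a diet containing 50 mg/kg of potassium perfluorooctanesulfonate (PFOS), a persistent fluorinated surfactant, for 28 days (4 arrays). Total RNA of 1 rat was labelled with Cy3 and hybridised to each 1-colour Agilent rat miRNA array, and another control array failed the submitters' quality control and was not analysed here. The series concerns hepatic miRNA and thyroid hormone homeostasis. Names are written below without the species prefix, and an asterisk marks the arm of a hairpin that was thought the minor one when the array was designed.

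A miRNA is cut from a hairpin precursor, from which either arm may be loaded into an Argonaute protein. The bases near its 5′ end, the seed, pair with target messenger RNAs and lower their output. In mammals miR-193 and miR-365 genes lie side by side, and a related pair, with miR-193b, is known for its high level in brown fat. Published targets of the miR-193 family include urokinase (Plau) and Mcl1, a survival factor of hepatocytes.

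The hairpins are shown because the results turn on which arm is read. In the RefSeq annotation of GRCr8, miR-193 and miR-193* come from Mir193, chr10:65170317-65170402, plus strand, and miR-365 and miR-365* from Mir365b, chr10:65184217-65184302, plus strand. The hairpins are 13814 bases apart, both are 86 bases long, and Mir365b is the next gene after Mir193. Capitals mark the 2 mature arms, the 5′ arm first, and in both hairpins the asterisk belongs to the 5′ arm.
Mir193: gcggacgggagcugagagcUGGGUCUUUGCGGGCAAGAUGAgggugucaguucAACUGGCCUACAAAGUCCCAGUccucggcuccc
Mir365b: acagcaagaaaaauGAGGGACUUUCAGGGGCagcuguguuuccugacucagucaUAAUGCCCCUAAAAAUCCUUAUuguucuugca

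The mature sequences are shown with the seed, bases 2 to 8 from the 5′ end, in capitals. They are credited to RefSeq, where miR-193 is named rno-miR-193a-3p, miR-193* rno-miR-193a-5p, miR-365 rno-miR-365-3p and miR-365* rno-miR-365-5p.
miR-193: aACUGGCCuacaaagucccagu
miR-193*: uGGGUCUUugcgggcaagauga
miR-365: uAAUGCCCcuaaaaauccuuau
miR-365*: gAGGGACUuucaggggc
miR-3549: aUCUUGCCcgcaaagaccc
miR-193b-3p: aACUGGCCcacaaaguccc
The members have no seed in common. The only other RefSeq rat miRNA with the seed of miR-193 was miR-193b-3p, which was not analysed here. Over the 19 positions compared it differed from miR-193 at 1 position, U9C, counted from the 5′ end. The antisense miR-3549, which is no member, was annotated on the minus strand of the same hairpin, and its whole length of 19 bases was complementary to miR-193* from position 2.

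The major arms of the cluster were read plainly in every liver. Both miR-193 and miR-365 had 2 probes with 10 spots each, and were detected on 4 of 4 PFOS and 3 of 3 Control arrays. All spots kept of both, with outlier-flagged spots left out, were well above background, and no spot of a member was saturated. Detection on an array required 1 or more probes with most (over 50%) of their unflagged spots well above background. The third, miR-193*, was detected on 4 PFOS arrays and 1 Control array. Detected on no array, miR-365* had a summed signal after background subtraction of -4.06 to -2.56 on PFOS and -8.65 to -0.377 on Control arrays, before scaling. In the deposited table miR-365* ranged from 5.39 to 5.47 on the log2 scale, beside column medians of 5.48 to 5.51. It was not tested and has no fold.

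The array as a whole sets the frame for these values. Of 175 miRNAs detected widely enough to be tested, 3 of them members, limma called 0 (0%) at a Benjamini-Hochberg adjusted p under 0.05, and 33 had an unadjusted p under 0.05. With the slide row as a block, limma called 4. The groups did not overlap for 36 of the 175 (20.6%), the median log2 difference was -0.03, and 74 differences were positive and 101 negative. Before scaling, the PFOS arrays were 1.74-fold brighter in the median signal of miRNAs detected on all arrays and had 2.19-fold the labelling spike-in signal, per the file headers. A difference below is therefore relative to the other miRNAs, and its relation to the brighter PFOS arrays was not tested. Fewer cells of a type and less RNA per cell cannot be told apart in whole liver.

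The normalised signal of miR-193 was 939, 1029, 912 and 1086 on PFOS arrays 1 to 4 and 1166, 993 and 1004 on Control arrays 1 to 3. The groups overlapped, with Control 1 highest and PFOS 3 lowest. The mean was 991 ± 80.7 (SD, n = 4) in PFOS and 1054 ± 96.7 (SD, n = 3) in Control livers, a log2 difference, PFOS minus Control, of -0.09 (SE 0.10). That difference lay at percentile 40 of the 175. Without Control 1 it was -0.0013, and within the slide rows, the only layout batch in the file headers, it was -0.25 (2 PFOS arrays and 1 Control array) and -0.0051 (2 and 2 arrays). Each probe alone gave a small negative value after the same normalization, -0.12 and -0.05, and with scaling to a common 75th percentile only the sum of both gave 0.03. The sign of miR-193 was therefore not resolved.

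The neighbouring miR-365 had a normalised signal of 444, 451, 339 and 440 on PFOS arrays and 390, 361 and 364 on Control arrays. PFOS arrays 1, 2 and 4 lay above every Control array, and PFOS 3 lay below them all. The mean was 418 ± 53.3 (SD, n = 4) against 372 ± 16.2 (SD, n = 3), a log2 difference of 0.16 (SE 0.12), at the 84.6th percentile of the 175. Without PFOS 3 it was 0.26, and within the slide rows it was 0.20 and 0.09. Both probes of miR-365 were dimmest, relative to the array, on PFOS 3: the scaled signal of A_26_P00001582 was 85.3 there and 131 to 139 on the other PFOS arrays, and that of A_26_P00002592 was 229.5 and 313 to 337. Both probes of miR-193 were also lowest on that array, at 160.1 and 722. Each probe alone gave a positive value, 0.09 and 0.17. PFOS 3 also had the highest labelling spike-in and the most detected miRNAs, 200, and the part of these in its low miR-365 was not tested.

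**Figure D1:**
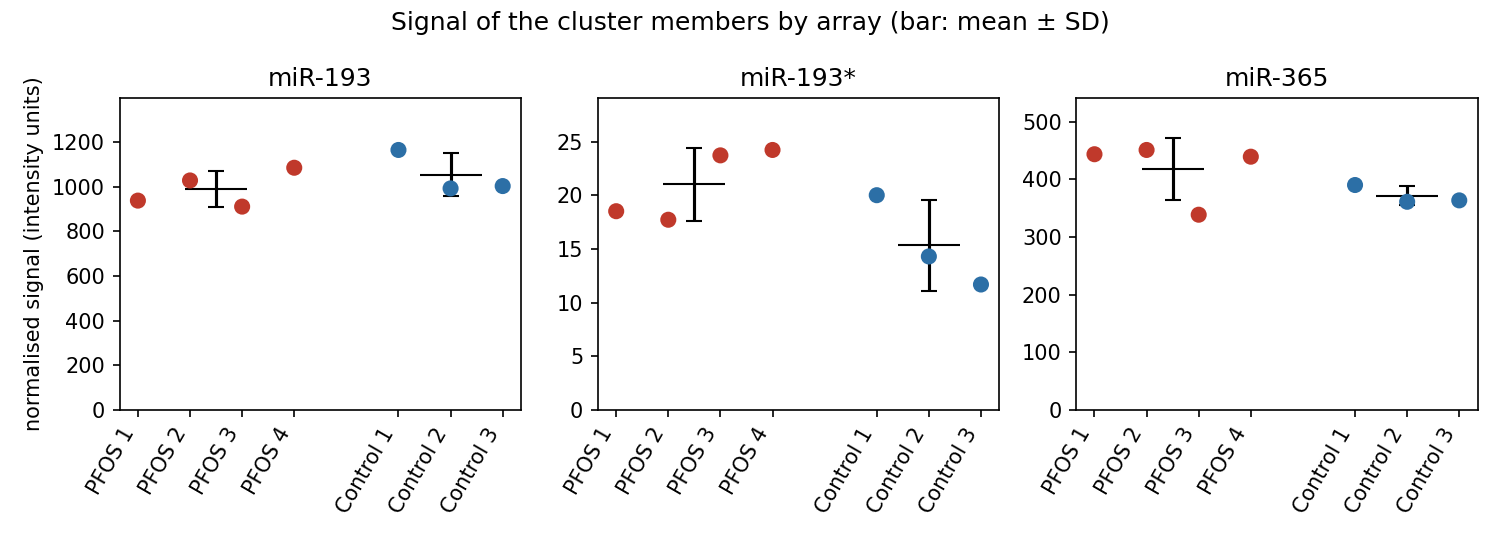
Normalised signal (vertical axis, intensity units, from 0) of miR-193, miR-193* and miR-365 on each array, PFOS in red and Control in blue, with the mean ± SD of 4 and 3 arrays. The groups overlap in each panel, miR-365 on PFOS 3 (339) lies below all other arrays, and miR-193* is dim throughout, from 11.7 to 24.2.

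The minor arm, miR-193*, was near the limit of the array. Its normalised signal was 18.5, 17.7, 23.7 and 24.2 on PFOS arrays and 20.02, 14.3 and 11.7 on Control arrays. The groups overlapped through Control 1, which was above PFOS 1 and PFOS 2. The mean was 21.1 ± 3.41 (SD, n = 4) against 15.3 ± 4.26 (SD, n = 3), a log2 difference of 0.48 (SE 0.21). It entered the 175 only through its detection on the brighter PFOS arrays, so its place among them is not read. Low values were held at a floor of 12.1 before normalization, and Control 3 was held there. Leaving out Control 1 gave 0.77, and leaving out PFOS 4 gave 0.25.

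The 4 probes of miR-193* disagreed in a way that the sum hides. On A_26_P00002119 and A_26_P00002120, 0 of 35 spots each were well above background, and the mean signal after subtraction was below 0 on all 7 arrays, from -8.26 to -4.15 and from -5.90 to -2.09. On A_26_P00002122, 19 of 20 spots on PFOS arrays and 5 of 15 on Control arrays were well above background. On A_26_P00002121 these were 14 of 20 and 0 of 15. All of the measured signal of this arm thus came from 2 of its 4 probes. Spots of a probe on an array share their RNA, and PFOS arrays were brighter, so the counts of spots are not replicates.

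Scaled to a common 75th percentile, A_26_P00002121 averaged 12.5 ± 1.00 (SD, n = 4) in PFOS and 9.99 ± 1.50 (SD, n = 3) in Control livers, and A_26_P00002122 averaged 18.0 ± 1.12 and 16.1 ± 1.04. Their sum was 29.9, 29.2, 30.5 and 32.7 on PFOS and 28.1, 24.6 and 25.4 on Control arrays, with no overlap and PFOS higher, a log2 difference of 0.23. This choice of 2 probes was made after the values were seen. The share of miRNAs without overlap was not computed at this scaling (20.6% of the 175 after cyclic loess). Nothing is therefore read from the lack of overlap. The other 2 probes, so scaled, summed to between -14.5 and -4.58 on PFOS arrays and between -17.3 and -7.79 on Control arrays. Before scaling they averaged -5.94 and -4.03 on PFOS and -5.90 and -3.75 on Control arrays. These negative values were divided by scale factors averaging 1.22 on PFOS and 0.77 on Control arrays. The part of this division in the difference was not tested. Adding all 4 probes, as in the main values, gave 0.57 with the 75th percentile scaling. With cyclic loess after the scaling, A_26_P00002122 alone, above the floor on all arrays, gave -0.0056. A_26_P00002121 alone was held at the floor on 3 Control arrays and 1 PFOS array, so its value there is set by the floor and is not read. The size of the difference in miR-193* therefore depended on which probes and which normalization were used.

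**Figure D2:**
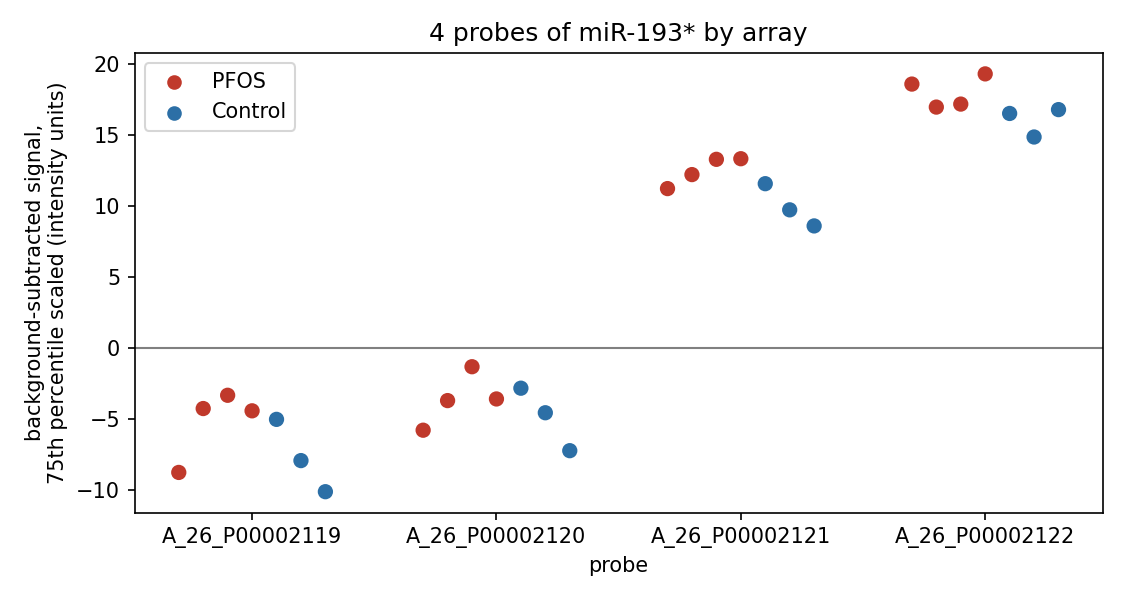
Background-subtracted signal of the 4 probes of miR-193* (horizontal axis), scaled to a common 75th percentile (vertical axis, intensity units), with 1 point per array in the order PFOS 1 to 4 (red) and Control 1 to 3 (blue). The first 2 probes lie below 0 on every array, and the other 2 lie between 8.63 and 19.3.

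After cyclic loess, the direction of miR-193* changed with the background treatment, and that of miR-193 and miR-365 did not over the 4 treatments run. The median pixel signal over its spots, with no background subtracted, was 52.0, 46.0, 53.5 and 49.3 on PFOS and 46.0, 45 and 49.3 on Control arrays. The median of the negative control spots was 89.7% to 100% of that on PFOS and 104% to 107% on Control arrays. The same share was 4.44% to 10.7% and 10.48% to 19.4% for miR-193, and 15.0% to 20.5% and 25.5% to 35.0% for miR-365. These medians leave out flagged spots. With every spot kept the share for miR-193 was 6.76% to 12.5% on PFOS and 10.3% to 14.9% on Control arrays, and that for miR-193* was the same. The median over all spots of miR-193* was thus near that of the negative controls on every array. It pools the 4 probes. The mean pixel signal by array was 55.9 to 74.1 on A_26_P00002122 and 49.4 to 65.7 on A_26_P00002121. On the other 2 probes it was 35.7 to 43.8, and the negative control medians were 45.5 to 52.

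With cyclic loess after each treatment, the log2 difference of miR-193* was -0.23 (SE 0.06) without subtraction. It was -0.15 (SE 0.07) after subtraction of the local background, -0.24 (SE 0.06) after normexp, a model-based correction that keeps values above 0, and 0.48 with the processed signal. The SE of the first 3 values is that of 4 and 3 array values without moderation. Normexp was run with an offset of 50 added to each spot, before the 4 probes were summed. The mean log2 signal of miR-193* was then 7.94 in PFOS and 8.19 in Control, against 4.38 and 3.90 with the processed signal. The part of this constant in the negative value was not tested. Over the same treatments miR-193 ran from -0.09 to -0.06 and miR-365 from 0.13 to 0.16. In the unsubtracted signal scaled to a common 75th percentile, the difference of miR-193* was -0.48, where the median of the 175 was -0.25. Before any scaling, the same unsubtracted signal gave 0.11 for miR-193* beside a median of 0.34.

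**Figure D3:**
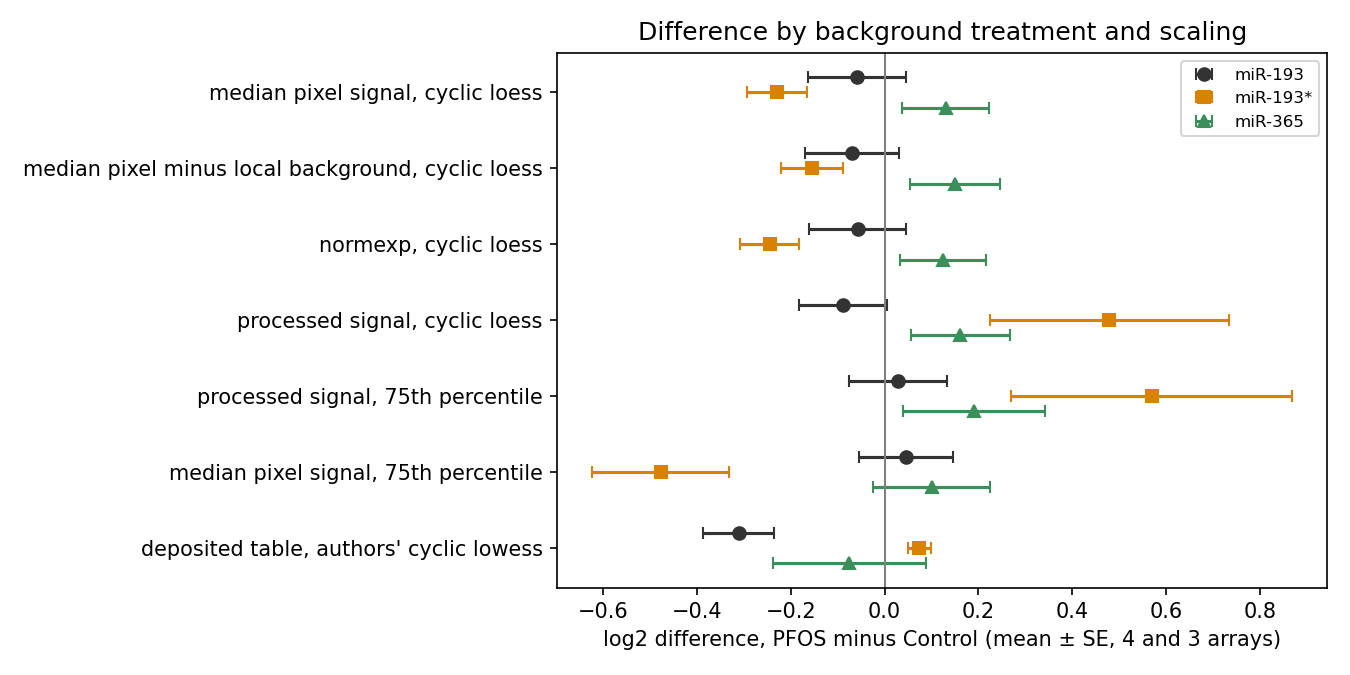
Log2 difference, PFOS minus Control (horizontal axis, mean ± SE of 4 and 3 arrays), of miR-193, miR-193* and miR-365 under 7 combinations of background treatment and scaling (vertical axis). The points of miR-193* lie on both sides of 0, from -0.48 to 0.57, and those of miR-193 from -0.31 in the deposited table to 0.05.

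The ratio of the 2 arms was taken within each array and read only for its difference between groups, since the probes of 2 arms are not comparable in level. A scale factor of the array does not cancel in it where miR-193* is held at the floor. The log2 ratio of miR-193 to miR-193* was 5.66, 5.86, 5.26 and 5.49 on PFOS arrays and 5.86, 6.12 and 6.42 on Control arrays. The groups did not overlap, although PFOS 2 and Control 1 are equal at 2 decimals. The mean was 5.57 ± 0.25 (SD, n = 4) against 6.14 ± 0.28 (SD, n = 3), a difference of -0.57 (SE 0.21). Among 21 precursors with both arms tested, 4 (19.0%) had ratios that did not overlap between groups, and the median difference was 0.07. The value of miR-193 was the lowest, followed by miR-22 over miR-22* at -0.23. As the ratio took part in choosing the members, nothing is read from that position.

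Without loess, the difference in the arm ratio was -0.73 with spike-in scaling, where no array was at the floor. It was -0.54 with the 75th percentile (1 Control array at the floor), -0.39 with that over all miRNAs (2 Control arrays) and -0.067 unscaled (2 Control arrays and 1 PFOS array). Within the slide rows the difference was -0.10 and -0.90, and for miR-193* itself -0.14 and 0.89. Without PFOS 3 the difference in the ratio was -0.37. With 75th percentile scaling only, the groups overlapped. With miR-193* read by A_26_P00002122 alone the difference was -0.08. It was 0.17 in the unsubtracted signal. In the deposited table it was -0.39 (SE 0.08), and the 4 PFOS ratios, 2.93 to 3.19, lay below the 3 Control ratios, 3.34 to 3.51. The share of arm ratios without overlap was not computed there, so nothing is read from this. The values of miR-193* in that table, 5.54 to 5.67, were close to the column medians of 5.48 to 5.51. In that table the difference was -0.31 for miR-193 and 0.07 for miR-193*.

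Both genes of the cluster were also set against each other. The log2 ratio of miR-193 to miR-365 was 1.08, 1.19, 1.43 and 1.30 on PFOS and 1.58, 1.46 and 1.46 on Control arrays. The groups did not overlap, with PFOS 3 nearest to the Control arrays. Ratios of miR-193 to the other 122 miRNAs detected on all arrays did not overlap for 22 (18.0%), and nothing is read from the lack of overlap. The mean was 1.25 ± 0.15 (SD, n = 4) against 1.50 ± 0.07 (SD, n = 3), a difference of -0.25 (SE 0.08), or -0.16 with 75th percentile scaling, where PFOS 3, at 1.49, lay above all Control arrays. Without loess it was the same under each scaling, since neither miRNA was near the floor. Within the slide rows it was -0.44 and -0.10.

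**Figure D4:**
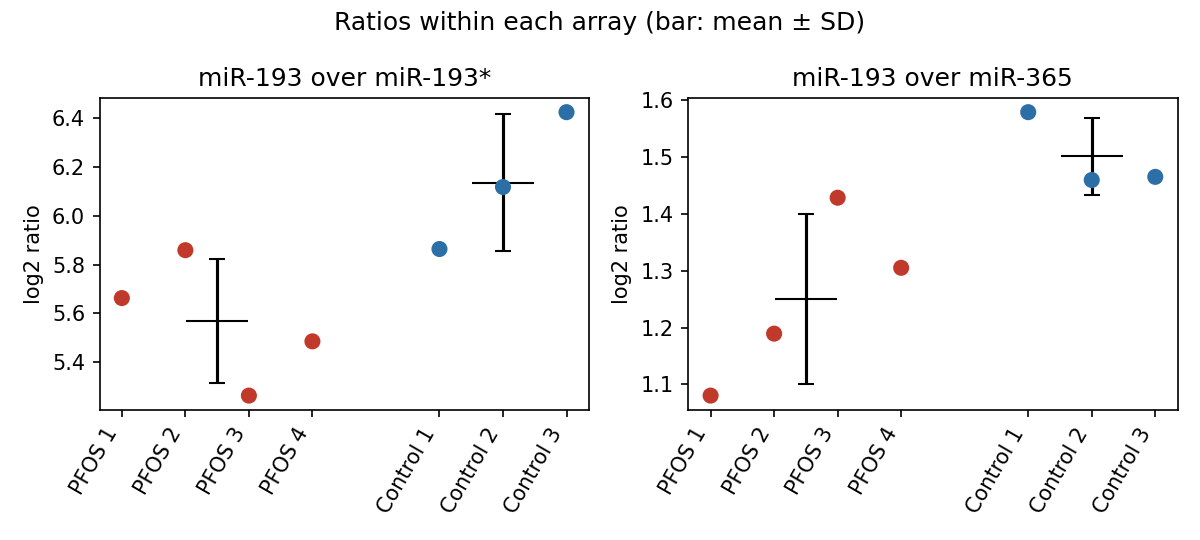
Log2 ratio within each array (vertical axis) of miR-193 to miR-193* and of miR-193 to miR-365, PFOS in red and Control in blue, with the mean ± SD of 4 and 3 arrays. In both panels the PFOS points lie below the Control points, with PFOS 2 at 5.86 close to Control 1 in the first and PFOS 3 at 1.43 close to Control 2 and 3 in the second.

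The deposited table, normalized by the authors, put the cluster differently. For miR-193 its log2 values were 8.58, 8.76, 8.59 and 8.76 on PFOS and 9.05, 8.87 and 9.03 on Control arrays, a difference of -0.31 (SE 0.07), and the groups did not overlap. In that table they did not overlap for 43 of the 175 (24.6%). For miR-365 the values were 7.95, 7.90, 7.25 and 7.80 on PFOS and 7.83, 7.79 and 7.78 on Control arrays, a difference of -0.08 (SE 0.16), where PFOS 3 was lowest. For miR-193* they were 5.62, 5.57, 5.67 and 5.65 against 5.55, 5.54 and 5.58, a difference of 0.07 (SE 0.02).

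How that table summarises spots is not known, and a median over spots is only one possible way. The spots were laid out because the 2 probes of miR-193 differ widely in brightness. The brighter one gave 79.4% to 82.3% of the summed signal. On every array all spots of one probe lay above all spots of the other, for miR-193 and for miR-365. A median over the 20 spots of a miRNA then falls between the dimmest spot of the brighter probe and the brightest spot of the dimmer one. On PFOS 3 the dimmest spot of the brighter probe of miR-365 had a median pixel signal of 213, carried an outlier flag, and stood beside 368 for the next spot and 211 for the brightest spot of the other probe. The median over all 20 spots was 7.73 on the log2 scale there, and 8.12 with outlier-flagged spots left out. Leaving out flagged spots moved the median of miR-193 by 0.84 on PFOS 2, by 0.64 on Control 2 and by -0.73 on Control 1, where unequal numbers of spots of the 2 probes remained. The mean per probe, used for the main values, does not have this step. With cyclic loess after it, the median over all 20 spots gave a difference of -0.087 for miR-193 and 0.050 for miR-365. The deposited table gave -0.31 and -0.075, so this median did not reproduce it. The part of any spot in the deposited values was not tested.

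**Figure D5:**
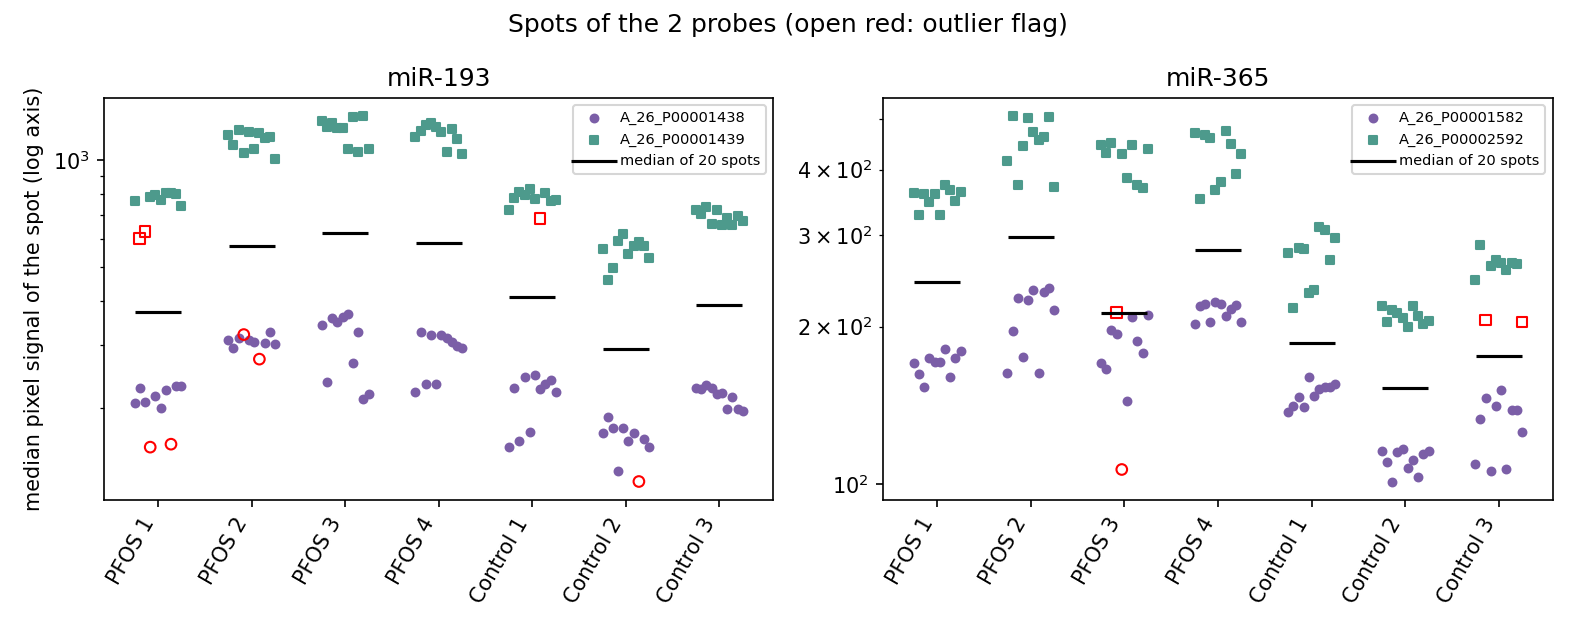
Median pixel signal of each spot (vertical axis, log scale) of miR-193 and miR-365 on each array, by probe, with outlier-flagged spots as open red symbols and the median of the 20 spots as a black bar. The bar falls in the gap between the probes, and for miR-365 on PFOS 3 it sits at a flagged spot of 213.

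Reading the antisense strand, miR-3549 was detected on 1 PFOS array and 1 Control array and was not tested. Its summed signal before scaling was 14.8, 23.6, 16.3 and 21.7 on PFOS and 30.3, 19.0 and 20.2 on Control arrays, and the groups overlapped. Normalised, it was 17.4, 16.3, 11.7 and 17.3 against 37.0, 32.0 and 25.4, all PFOS values below all Control values. Between these readings the signals were divided by scale factors averaging 1.22 on PFOS and 0.77 on Control arrays. The part of this scaling in the gap was not tested. PFOS 3, with scaled probe signals of 5.26 and 4.80, was held at the floor of 12.1 before loess. The share without overlap was not computed for untested miRNAs, so nothing is read from the lack of overlap. Over all arrays 18 of 70 and 21 of 67 kept spots of its probes were well above background, and no fold is given.

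Likeness of pattern was described by Pearson's r of normalised log2 signal over the 7 arrays, which share their normalization, among the 175 tested miRNAs. For miR-193 the highest were miR-24 (r = 0.83), miR-140 (0.73) and miR-494 (0.71). For miR-365 they were miR-802 (r = 0.93), let-7f (0.92) and miR-148b-3p (0.91). Between miR-193 and miR-365 r was 0.30, and between miR-193 and miR-193* 0.09.

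Other miRNAs studied in brown fat and muscle fate, such as miR-196a and miR-27b, had 15 of 16 listed on the array and 10 tested (miR-455, miR-133a and miR-133b were detected on no array), with 5 positive and 5 negative differences, 0 called by limma and a median of 0.04. Of these, the 2 of smallest p were miR-455* at 0.64 (SE 0.18) and miR-27b at -0.35 (SE 0.10). The mean log2 signal of miR-455* was 4.31 in PFOS and 3.66 in Control livers. Both lay below those of miR-193*, 4.38 and 3.90, so its difference is near the limit of the array and is not read. The hepatocyte list, which holds miR-122, a liver-defining miRNA, had 1 positive and 7 negative differences of 8 tested (74 and 101 of all 175). Its median was -0.10. Among the 7 negative, miR-122 itself was little changed at -0.01 (SE 0.06), and so was miR-22 at -0.00036 (SE 0.08). The summed log2 signal of the list was 16.30 to 16.34 on PFOS and 16.35 to 16.37 on Control arrays, a narrow gap. The cholangiocyte and epithelial list had 5 positive and 1 negative of 6 tested. Its summed log2 signal was 9.54 to 10.13 against 9.07 to 9.42, with miR-200c, miR-141, miR-183 and miR-205 detected nowhere. The differences were 1.82 (SE 0.48) for miR-200b, 1.58 (SE 0.37) for miR-200a and 1.44 (SE 0.31) for miR-429. They were small for miR-96, 0.29 (SE 0.47), miR-203, 0.19 (SE 0.14), and miR-31, -0.01 (SE 0.12). Of the 8 lists these 2 (25%) did not overlap between groups, and their part in the results was not tested. Summed signals overlapped for the stellate, leukocyte, endothelial, erythroid, skeletal muscle and brown fat lists.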

How the data were processed

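Scanner files of 7 arrays (1 slide, 1 scan time) were used. Their spot intensity values come from Feature Extraction 10.7.3.1, per the file headers, and the processed signal is background-subtracted and not normalized between arrays. The deposited series table is on a log2 scale after the authors' cyclic lowess in R, and how it summarises spots is not given in the sources used here. From the scanner files, spots without an outlier flag were averaged per probe and probes summed per miRNA. Each array was brought to the same 75th percentile, taken on 123 miRNAs with detection everywhere. Values under the 1st percentile of detected signals (12.1) were set to it, and cyclic loess followed (limma 3.58.1, R 4.3.3, span 0.7, 3 iterations), weighted on those 123. Tests with lmFit and eBayes covered miRNAs detected on all 3 Control or at least 3 PFOS arrays, with Benjamini-Hochberg adjustment. Only the limma fit was tested on simulated data, drawn as normalised log2 values. Background subtraction, probe sums, scaling, the floor and loess were not tested in this way. The number of arrays limits the precision, and replicate numbers only name arrays.

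The members, lists and alternatives were chosen with earlier results of these data known. Named miRNAs were the members, the 3 most alike by r, those sharing a seed or lying at the same locus, the neighbour of miR-193 in order of arm ratio, and up to 2 per list by smallest p, beside list members named for their role. Every tested miRNA of the epithelial list is also named. Of 677 array names, 178 matched a RefSeq mature name directly for the seed search, and members were matched through later names. Coordinates are RefSeq's on GRCr8, and the array design names an older build.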

Additional observations from a re-analysis of the deposited data

Results flagged for a closer look

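Of 13 member quantities screened for a single distant value among the 4 PFOS arrays, 2 stood out, both on PFOS 3. By chance alone such a screen marks about 1 in 20 groups. The 13 share arrays and probes, and both flags read miR-365, so they are not separate results. The normalised log2 signal of miR-365 was 8.40 there, against 8.78 to 8.82 on the other PFOS arrays. The scaled signal of its dimmer probe, A_26_P00001582, was 85.3. Groups of 3 were not screened.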

How the results depend on the processing

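The cause of the following changes was not tested. No sign was common to all alternatives for any difference. Of 28 settings 6 turned the sign for miR-193, 5 for miR-193*, 2 for miR-365 and 6 for the arm ratio. Of 26 settings 1 did for miR-193 over miR-365. These totals include settings that change only which miRNAs are tested, which cannot alter a difference. Settings that change only the scale factors gave the same value, -0.16, for miR-193 over miR-365. The totals are therefore no measure of stability. For miR-193 (-0.09) the difference was 0.24 with a 75th percentile over all miRNAs, 0.50 with equal-weight loess, 0.69 unscaled, -0.31 in the deposited table, -0.44 with spike-in scaling, and 0.15 both as a median over spots and as that of median pixel signals without flagged spots. For miR-193* (0.48) it was -0.23 unsubtracted, -0.15 with local background, -0.24 with normexp, 0.074 in the deposited table, 0.039 as a median over spots, 0.061 and 0.047 as medians of pixel signals with and without flagged spots, and -0.087 and -0.0056 by single probes; the first of these was at the floor on 3 Control arrays and 1 PFOS array, and the other 2 probes, at the floor on all arrays, gave no value. For miR-365 (0.16) it was 0.40 with the percentile over all miRNAs, 0.85 unscaled, -0.075 in the deposited table and -0.28 with spike-in scaling. The arm ratio (-0.57) was -0.89 with quantile normalization, 0.14 with equal-weight loess, -0.067 unscaled, 0.17 unsubtracted, 0.086 with local background, 0.19 with normexp, -0.26 with total gene signal, 0.11 as a median over spots, -0.15 and 0.11 as medians of pixel signals with and without flagged spots, and -0.0018 and -0.083 by single miR-193* probes, the first set by the floor. The ratio of miR-193 to miR-365 (-0.25) was 0.43 with equal-weight loess and -0.074 as a median of pixel signals without flagged spots. Leaving out 1 array at a time gave -0.13 to -0.0013 for miR-193, 0.25 to 0.77 for miR-193*, 0.11 to 0.26 for miR-365, -0.77 to -0.37 for the arm ratio, -0.30 to -0.17 for miR-193 over miR-365, and 0 calls by limma throughout. The number of miRNAs called by limma was otherwise 3 with the percentile over all miRNAs, 53 unscaled, 6 unsubtracted, 1 with local background, 6 with normexp, 1 with total gene signal, 9 in the deposited table, 1 with all miRNAs tested, 4 with slide row as a block and 8 with spike-in scaling. Spike-in scaling, both medians of pixel signals and the single-probe arm ratios were added after seeing the data. Signal over background limits miR-193*, and 3 Control arrays limit every difference.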
